A study of Mus musculus with 24 samples.

Results

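The genes described here are 10 marker genes of neutrophils, S100a8, S100a9, Retnlg, Ngp, Camp, Ltf, Mmp8, Csf3r, Il1r2 and Cxcr2, taken by their Ensembl identifiers from the 55401 genes counted in mouse gastrocnemius muscle. At least 1 read was counted for 9 of the 10 in some library, and Ltf had none. The mice were male C57BL6 of 2 ages: young mice arrived at 4 weeks and were burned at 5 weeks of age, and adult mice arrived at 10 weeks and were burned at 11 weeks. Burned mice received a full-thickness scald over 25% of the body surface together with fluid for resuscitation, whereas sham mice had the anaesthetic and the analgesic without scald or resuscitation, so burn and fluid cannot be told apart. Muscle was taken 24 h later, from a leg that the burn on the trunk did not touch. There were 3 mice, each with 1 library of poly-A RNA, in each of the 4 groups: YB and YS are the burned and sham young mice, and AB and AS the burned and sham adults.

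Neutrophils are made in bone marrow from granulocyte precursors and circulate in blood for a short time before they enter injured tissue. During maturation they fill granules in sequence: primary granules hold myeloperoxidase and elastase, secondary granules hold lactoferrin (Ltf), cathelicidin (Camp) and neutrophilic granule protein (Ngp), and later granules hold gelatinases. The mRNAs of granule proteins are at their height in marrow precursors and low in mature circulating cells, whereas S100a8 and S100a9, the subunits of calprotectin, stay abundant in the mature cell. S100a8 and S100a9 are also made by monocytes, and by other cells in inflammation. Csf3r is the receptor for granulocyte colony-stimulating factor, Cxcr2 binds chemokines that draw neutrophils into tissue, and Il1r2 is a decoy receptor for interleukin 1. In bulk muscle, fewer cells of a type and less RNA per cell cannot be told apart.

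Total counts ran from 4392605 to 5688512 per library, and levels are given as CPM, a gene's count relative to the library total after TMM scaling. A count of 0 in a library allows up to 3 counts, or 0.502 to 0.729 CPM here; limits and intervals of this kind cover counting error only. YB replicate 2 stood apart from the rest. Its median correlation with the other libraries, over log2 CPM of expressed genes, was 0.931, against 0.957 to 0.970 for the other 11, and results that depend on it are given with and without it. The muscle markers Ckm, Acta1, Myh4, Mb and Tnnt3 were abundant in every library, with summed levels from 64583 to 123747 CPM. Ly6g, which defines mouse neutrophils on the cell surface, had a count of 0 in all 12 libraries.

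S100a8 and S100a9 lie side by side on chromosome 3 (GRCm38), and they carry most of the reads of the 10 genes. S100a8 (ENSMUSG00000056054.9) spans 90668978 to 90670035 on the plus strand and S100a9 (ENSMUSG00000056071.12) spans 90692632 to 90695721 on the minus strand, so that 22596 bases separate them. No other gene of the annotation overlapped either of them. The RefSeq bases just upstream of both genes are shown because these are the 2 members whose levels were high enough to test. Capitals mark matches on either strand to TTGCNNAA, a pattern bound by C/EBP factors, or GAGGAA, a pattern bound by PU.1.
S100a8, chr3:90668821-90668977, plus strand: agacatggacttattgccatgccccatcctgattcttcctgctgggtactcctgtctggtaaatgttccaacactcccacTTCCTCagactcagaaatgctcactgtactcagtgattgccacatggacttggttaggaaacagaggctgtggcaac
S100a9, chr3:90695722-90695971, minus strand: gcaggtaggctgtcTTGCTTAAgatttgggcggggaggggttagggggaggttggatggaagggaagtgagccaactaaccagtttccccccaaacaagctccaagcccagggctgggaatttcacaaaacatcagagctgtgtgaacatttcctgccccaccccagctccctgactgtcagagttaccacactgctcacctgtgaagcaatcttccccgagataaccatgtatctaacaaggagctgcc
The S100a8 stretch stops just before the first annotated base of the gene, which lies 93 bases before the RefSeq start. A second GAGGAA match and the TATAAA match of S100a8, at -36 and -30 from the RefSeq start, lie beyond the stretch and are not shown. Over the 300 bases around each RefSeq start, TTGCNNAA was found in the promoters of 5 of the 10 members (S100a9, Retnlg, Ngp, Ltf and Mmp8) and in 10.8% of 32851 promoters searched. GAGGAA was found in 5 of 10 (S100a8, Ltf, Mmp8, Csf3r and Cxcr2) and in 28.3% of all promoters. TATAAA was found in 3 members (S100a8, S100a9 and Mmp8) and in 13.6% of all, and TTCNNNGAA, a STAT pattern that reads the same on both strands, in Il1r2 alone and in 8.3% of all. The matches describe letters in these windows and were not tested against the expression data.

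Per kilobase of exon, S100a8 and S100a9 stood above the other 8 members in all 4 groups. In AB the mean level was 8.70 ± 3.85 CPM per kb for S100a9 and 5.27 ± 2.74 for S100a8 (SD, n = 3), and in AS it was 2.44 ± 0.98 and 1.63 ± 1.21. In YS S100a9 stood at 1.63 ± 1.01 and S100a8 at 1.44 ± 0.91, and in YB S100a9 stood at 8.31 ± 1.28 and S100a8 at 14.6 ± 15.9. The order of these 2 neighbours was not tested. The SDs are spreads between mice, and both genes were read in the same libraries, so the SDs do not measure the error of their difference. When YB replicate 2 was left out, the YB means were 8.81 ± 1.33 for S100a9 and 5.43 ± 1.05 for S100a8 (SD, n = 2), which turned their order in YB. In AB the next members were Retnlg at 0.507 ± 0.372 CPM per kb, Il1r2 at 0.408 ± 0.162 and Csf3r at 0.321 ± 0.164, and their order was not tested either. In the 12 libraries Mmp8, Cxcr2, Camp and Ngp stood below 0.1 CPM per kb in every group, and Ltf at 0.

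**Figure D1:**
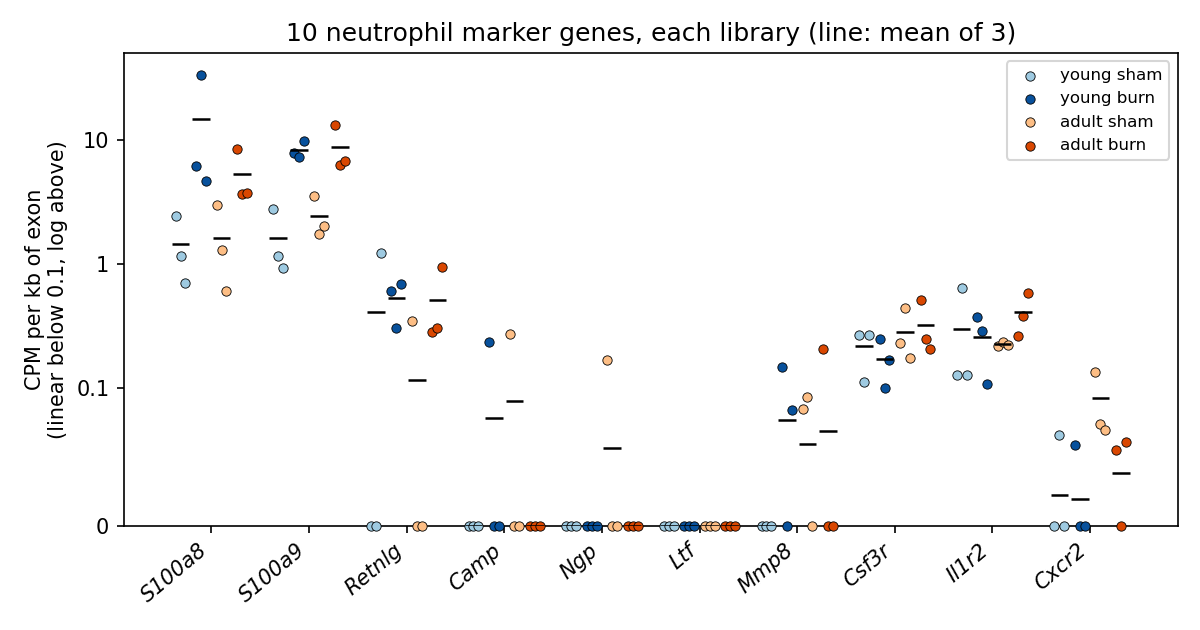
Level of each of the 10 genes in every library, in CPM per kilobase of merged exon (vertical axis, linear below 0.1 and log above), with points coloured by group and a line at the mean of 3 libraries. S100a8 and S100a9 have the highest means in all 4 groups, Ltf lies at 0 in all 12 libraries, and single libraries of Retnlg reach the sham levels of S100a8.

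S100a9 was higher in burned than in sham muscle at both ages. Its raw counts were 23, 21 and 25 in YB and 6, 3 and 2 in YS, which is 4.11, 3.82 and 5.09 CPM against 1.46, 0.605 and 0.486 CPM. In AB the counts were 41, 18 and 19, or 6.85, 3.24 and 3.52 CPM, and in AS they were 9, 4 and 5, or 1.86, 0.903 and 1.06 CPM. Every burn library stood above every sham library.

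S100a8, the partner of S100a9 in calprotectin, showed the same separation, with 1 extreme library. Its counts were 35, 14 and 14 in AB and 10, 4 and 2 in AS, which is 5.85, 2.52 and 2.59 CPM against 2.06, 0.903 and 0.423 CPM. In YB the counts were 24, 126 and 16, or 4.28, 22.9 and 3.26 CPM, and in YS they were 7, 4 and 2, or 1.70, 0.807 and 0.486 CPM. The 126 counts of YB replicate 2 exceeded those of every other library at least 3-fold, and without this library the 5 burn libraries still lay above all 6 sham libraries. Such a separation over both ages, with every burn library higher, was seen in 0.951% of the 12408 genes tested, in 10.5% within the young mice and in 10.3% within the adults. Among the 10 members it held for S100a8 and S100a9 at both ages, for these 2 within the young, and for these 2 and Il1r2 within the adults. In the opposite order, every adult burn library lay below every adult sham library for Cxcr2, from 2 against 4 reads. The share of all genes with that opposite order was not counted.

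**Figure D2:**
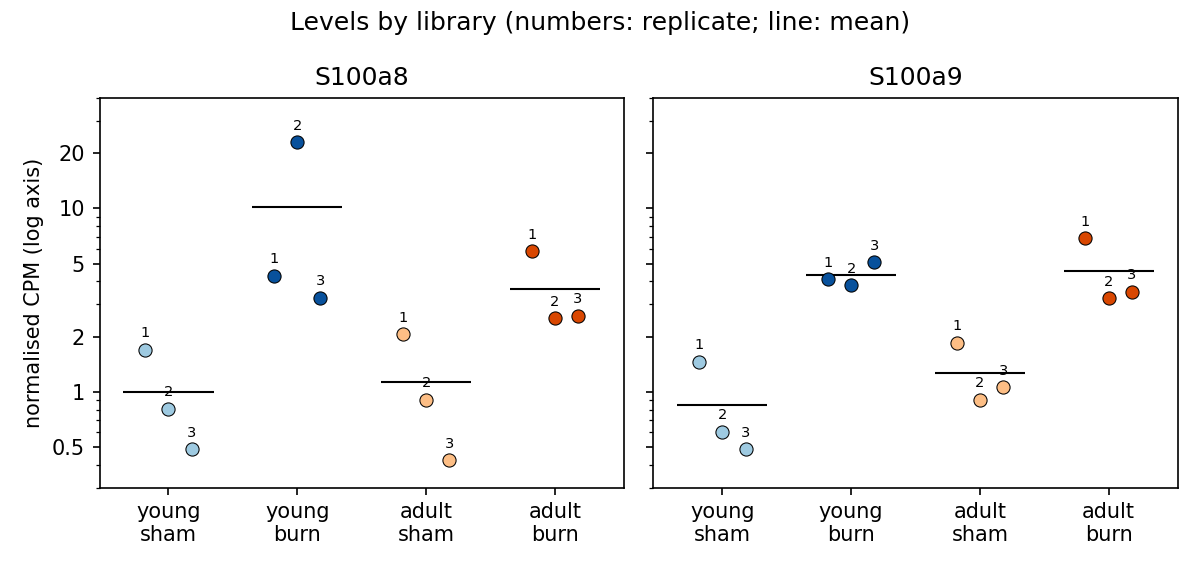
Normalised CPM of S100a8 (left) and S100a9 (right) in each library on a log axis, by group, with replicate numbers beside the points and a line at the group mean. The burn libraries of both genes sit above all sham libraries, and YB replicate 2 reaches 22.9 CPM for S100a8 but 3.82 CPM for S100a9.

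Only S100a8 and S100a9 passed the filter on low counts, so 2 of the 10 members could be tested across genes with edgeR's quasi-likelihood test. Both passed through the burn libraries, where each had 14 or more counts, while no sham library exceeded 10, and neither passed when the sham groups were fitted alone. The counts of members called below are therefore given as a description, with nothing read from them against the share of all genes. With burn compared with sham over both ages, S100a9 rose by a log2 fold change of 2.07 (SE 0.31, adjusted p = 0.0199) in the 12 libraries and of 2.12 (SE 0.33, adjusted p = 0.00457) in the 11 without YB replicate 2. In the 12 libraries this call was lost when AS replicate 3 (adjusted p = 0.0831), YS replicate 2 (adjusted p = 0.085) or YS replicate 3 (adjusted p = 0.0665) was left out. S100a8 had a larger estimate with a larger error in the 12 libraries, 2.51 (SE 0.61, adjusted p = 0.0732), which did not pass. Without YB replicate 2 it rose by 1.80 (SE 0.39, adjusted p = 0.0248), and it also passed without YB replicate 1 (2.69, adjusted p = 0.0216) or YB replicate 3 (2.71, adjusted p = 0.0498). In this comparison 1 member was called in the 12 libraries and 2 in the 11, and 0.903% and 2.81% of all genes tested were called. The median log2 fold change over all genes was 0.00178 in the 12 libraries.

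Within 1 age the calls depended on the libraries and the tool used. In the young mice the log2 fold change of S100a9 was 2.34 (SE 0.47, adjusted p = 0.0623) in the 12 libraries, and without YB replicate 2 it was 2.43 (SE 0.51, adjusted p = 0.0447), which passed. S100a8 had values of 3.34 (SE 0.83, adjusted p = 0.0768) and 1.93 (SE 0.59, adjusted p = 0.129) in the same fits. Both genes passed without YB replicate 1, S100a8 at 3.71 (adjusted p = 0.0265) and S100a9 at 2.37 (adjusted p = 0.0272). With DESeq2, the tool the study used, both passed in the young in the 12 libraries, beside 3.17% of all genes. S100a8 stood at 3.37 (adjusted p = 0.00307) and S100a9 at 2.38 (adjusted p = 0.00719) in that fit. With edgeR 0 members were called in the young in the 12 libraries, though both had an unadjusted p under 0.05, as did 2519 of 12408 genes, and 1 was called in the 11. The shares of all genes called were 0.0645% and 0.664%. In the adults S100a9 had a log2 fold change of 1.81 (SE 0.42, adjusted p = 0.492) and S100a8 one of 1.67 (SE 0.89, adjusted p = 0.746), and in the 11 libraries the same estimates had SEs of 0.43 and 0.52 and adjusted p = 0.0615 and 0.151. No member was called in the adults in either fit, where 0.00806% and 0.909% of all genes were called. At an unadjusted p under 0.05 stood S100a9 in the 12 libraries, beside 853 of 12408 genes, and both members in the 11, beside 1731 of 12651 genes.

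**Figure D3:**
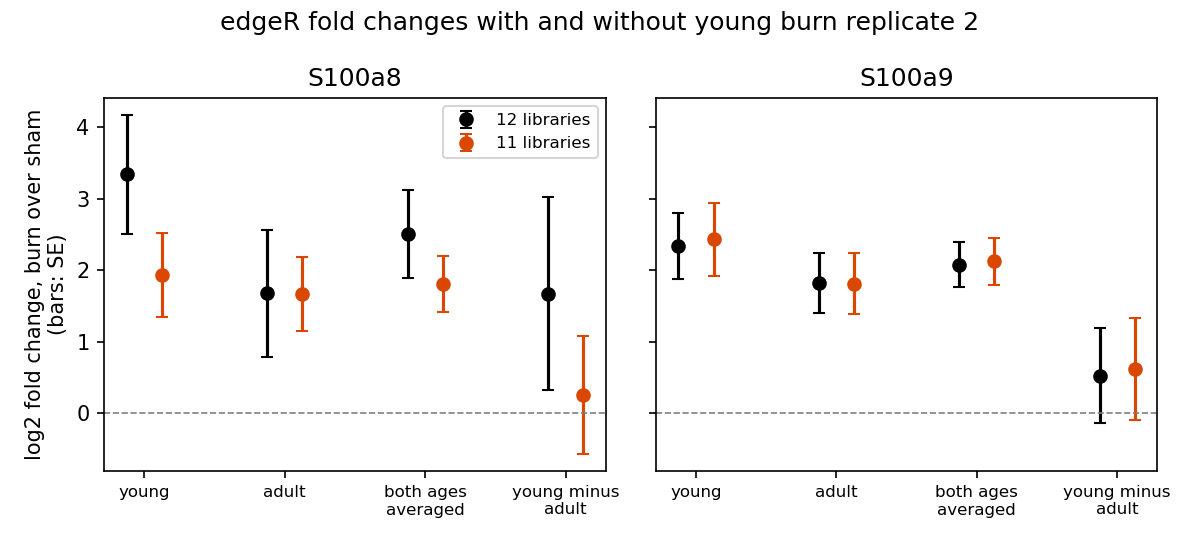
Log2 fold change of burn over sham (vertical axis) for S100a8 and S100a9 in the young, in the adults, averaged over both ages, and as the difference young minus adult, with bars of 1 SE. Black points use 12 libraries and orange points leave out YB replicate 2, which lowers the S100a8 estimate in the young from 3.34 to 1.93 and leaves S100a9 near 2.4.

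The burn effect on these genes was not shown to differ between the ages. The difference of the young and adult log2 fold changes was 0.52 (SE 0.67, adjusted p = 0.872) for S100a9 and 1.67 (SE 1.35, adjusted p = 0.8) for S100a8 in the 12 libraries. Without YB replicate 2 the S100a8 difference was 0.26 (adjusted p = 0.944) and that of S100a9 was 0.62 (adjusted p = 0.78). In either fit the call rate for this difference was low, 0% and 0.0949% of all genes, with 0 of 2 members called and neither at an unadjusted p under 0.05. The 2 burn groups, compared directly, gave 1.47 (SE 0.64, adjusted p = 0.15) for S100a8 and -0.08 for S100a9, and 0.04 and 0.01 without that library, with 0 of 2 called beside 10.8% and 20.7% of all genes. Between the sham groups the young minus adult values were -0.20 for S100a8 and -0.60 for S100a9, again with 0 of 2 called, beside 3.76% and 11.8% of all genes in the 12 and the 11 libraries. The age comparison of the burn groups thus had 1 member at an unadjusted p under 0.05, S100a8 with YB replicate 2 included.

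The 2 calprotectin genes had similar numbers of reads in most libraries. The merged exons span 694 bases in S100a8 and 522 in S100a9, so an even share of reads is not an equal level per kilobase. S100a8 made up 28.6% to 57.1% of the S100a8 and S100a9 reads in 11 libraries, and 46% of the 287 reads of these libraries. The exact 95% binomial intervals of these 11 libraries all reached across 50%. In YB replicate 2 the share was 85.7%, with an interval from 79% to 90.9%, from 126 of 147 reads. This interval overlapped those of 4 sham libraries with 4 to 13 reads, all 3 of YS and AS replicate 2, but not those of the other 5 burn libraries, whose upper bounds ran from 55.5% to 65.9%. YB replicate 2 was also the highest library for Lcn2 (142 counts), Hp (200 counts) and Cebpb (769 counts, against 127 to 308 elsewhere), and the part of these differences in the S100a8 value was not tested.

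**Figure D4:**
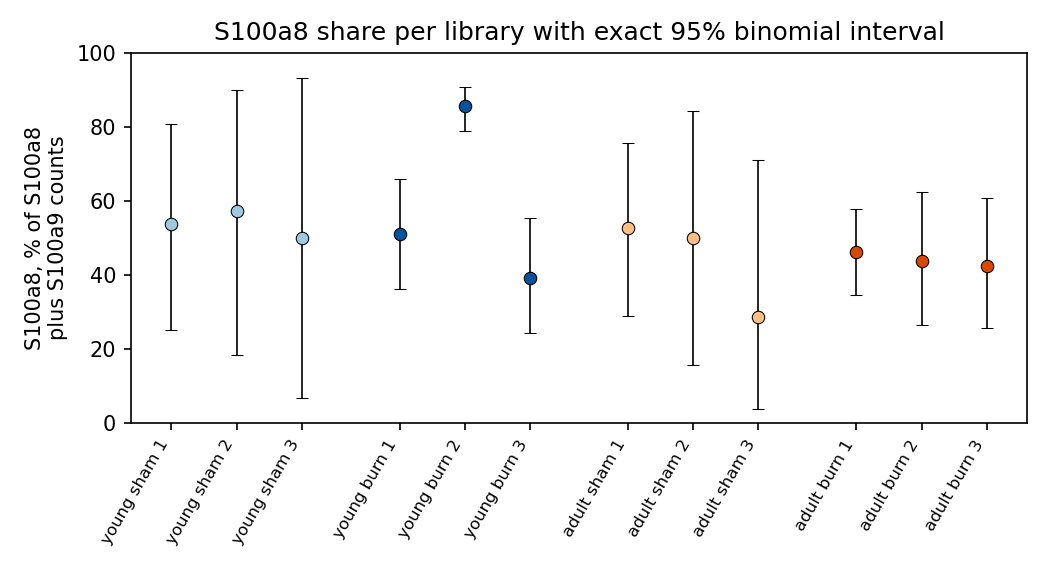
Share of S100a8 among the reads of S100a8 and S100a9 in each library, in percent, with its exact 95% binomial interval. In 11 libraries the interval includes 50%, and in YB replicate 2 the share is 85.7%.

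The remaining granule and secreted proteins were at the limit of detection. Retnlg, a resistin-like protein of neutrophils (chromosome 16, 48872621 to 48874496), had counts of 2, 1 and 2 in YB, 1, 1 and 3 in AB, 0, 0 and 3 in YS, and 1, 0 and 0 in AS. It was seen in 6 of 6 burn libraries and 2 of 6 sham libraries, with 10 reads against 4. The pooled burn to sham ratio was 2.06, with an exact 95% counting interval from 0.595 to 9.02 that includes 1. Mmp8, the neutrophil collagenase (chromosome 9, 7558456 to 7568485), had 6 reads in 3 burn libraries and 2 reads in 2 sham libraries, all of the latter adult, for a ratio of 2.48 (0.443 to 25.1). Neither difference was detectable at this depth.

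The secondary granule genes Camp, Ngp and Ltf, which lie on chromosome 9 like Mmp8, were all but absent from the reads. Camp, the cathelicidin precursor (109847379 to 109849617), had 1 read in YB and 1 in AS. Ngp (110419747 to 110423012) had 1 read in the whole series, in AS replicate 1. Ltf, lactoferrin (111019271 to 111042767), had 0 counts in 12 of 12 libraries although its merged exons of 3450 bases are among the longest of the 10. With so few reads no fold is given for these 3 genes.

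The surface receptors were seen at low levels, and the pooled burn to sham interval of each over both ages included 1. Csf3r (chromosome 4, 126024550 to 126044440) had counts of 5, 2 and 3 in YB, 4, 2 and 4 in YS, 11, 5 and 4 in AB and 4, 7 and 3 in AS. The groups overlapped at both ages, and the pooled ratio of burn to sham was 1.03 (0.583 to 1.84) from 30 against 24 reads. Its highest library was AB replicate 1, which was also the highest for S100a9.
Il1r2 (chromosome 1, 40074079 to 40125231) had counts of 4, 3 and 1 in YB, 1, 6 and 1 in YS, 3, 4 and 6 in AB and 2, 2 and 2 in AS. The adult burn libraries, from 0.502 to 1.11 CPM, lay above the adult sham libraries, from 0.412 to 0.452 CPM, whereas the young groups overlapped. From 21 against 14 reads the ratio over both ages was 1.24 (0.601 to 2.63), and in the adults it was 1.79 (0.636 to 5.75). Il1r2 shares its span with the genes Gm16894 and Gm37347, but no exon of theirs overlaps its exons. Cxcr2 (chromosome 1, 74153989 to 74161246) had 3 reads in the burn libraries and 5 in the sham libraries, for a ratio of 0.495 (0.0769 to 2.55). In the adults Cxcr2 had 2 reads in the burn and 4 in the sham libraries, for a ratio of 0.414 (0.0374 to 2.89), an interval that includes 1. Its adult burn libraries, from 0 to 0.185 CPM, lay below its adult sham libraries, from 0.211 to 0.412 CPM.

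**Figure D5:**
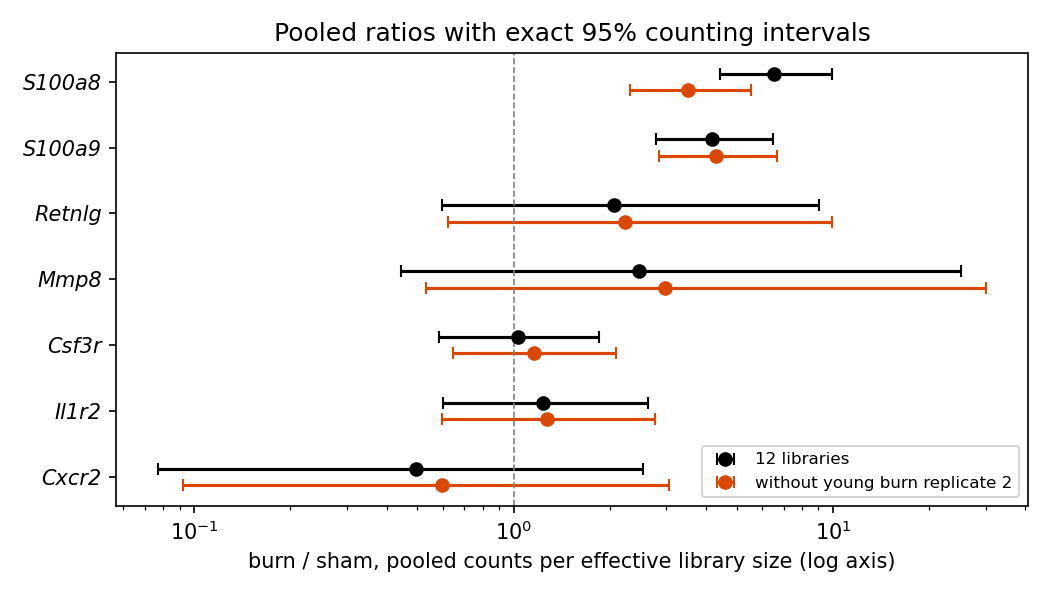
Ratio of burn to sham over both ages (log axis) for the 7 members with more than 3 reads in all, from counts pooled over libraries and divided by effective library size, with exact 95% counting intervals. Only the intervals of S100a8 and S100a9 exclude 1, in the 12 libraries (black) and without YB replicate 2 (orange); the intervals do not include the spread between mice.

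Summed over the 10 genes, the burn libraries held 447 reads, or 294 without YB replicate 2, and the sham libraries 109. The summed level was 3.50 ± 0.76 CPM in YS, 16.2 ± 10.1 in YB, 4.48 ± 1.83 in AS and 10.7 ± 4.5 in AB (SD, n = 3). With YB replicate 2 left out the YB sum was 10.4 ± 0.92 CPM (SD, n = 2), and the pooled burn to sham ratio over both ages was 2.67 (2.14 to 3.36) in place of 3.39 (2.74 to 4.21). The lowest burn library stood at 7.57 CPM, with an exact 95% Poisson interval from 5.46 to 10.2, and the highest sham library at 6.39 CPM, with an interval from 4.34 to 9.07. The 8 members other than S100a8 and S100a9 gave 71 reads in burn and 51 in sham libraries, and their pooled ratio was 1.15 (0.791 to 1.68). Without YB replicate 2 it was 1.26 (0.862 to 1.86). The higher sum in burned muscle was therefore carried by S100a8 and S100a9, which made up 70.2% to 96.1% of the members' reads in burn libraries and 33.3% to 72.2% in sham libraries.

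An exact two-sided permutation test of burn against sham, with labels exchanged within each age, was run on the mean log2 CPM of the 9 members with a read. Its smallest possible p over the 400 arrangements is 0.005. S100a8 (difference 2.26) and S100a9 (difference 2.02) both reached this exact p of 0.005. Without YB replicate 2 the S100a8 difference was 1.81 (exact p = 0.01). The exact p was 0.1 for Retnlg, 0.145 for Cxcr2, 0.505 for Il1r2, 0.51 for Camp, 0.66 for Mmp8 and 0.815 for Csf3r. Ngp gave an exact p of 0.01 from its single read, and the same p with that library left out, when all its counts were 0. At a count of 0 the tested value is set by library size through the pseudocount of 0.5, so no direction is read from it. Retnlg passed when YS replicate 3, which held 3 of its 4 sham reads, was left out (exact p = 0.02), but with a pseudocount of 2 its exact p was 0.42. Cxcr2, with a difference of -0.44, had an exact p of 0.015 at a pseudocount of 2, and Camp had one of 0.015 without YB replicate 1, which held its only burn read. These genes have 2 to 14 reads in all, and no direction is read from tests that turn on the pseudocount or on 1 library.

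Of 21 other genes known from neutrophils, 15 had a read and 4 were tested, and all 4 had positive estimates over both ages, with a median log2 fold change of 1.09. Lcn2, lipocalin 2, which is stored in neutrophil granules and also induced in many tissues by inflammation, was the one called: its counts were 34, 90 and 53 in AB, 55, 142 and 69 in YB, 6, 4 and 4 in AS and 3, 7 and 2 in YS. Every burn library stood above every sham library. Lcn2 passed the filter through the burn libraries, as no sham library exceeded 7 counts. Its call, and the signs and median of the 4 tested genes, are therefore given as a description. Lcn2 rose by a log2 fold change of 3.76 (SE 0.39, adjusted p = 0.00115) over both ages and of 4.16 (SE 0.55, adjusted p = 0.0126) in the young, whereas its 3.37 in the adults (adjusted p = 0.197) passed only without YB replicate 2 (3.36, adjusted p = 0.00273). Without YB replicate 2, Lcn2 rose by 3.52 (adjusted p = 0.000137) and Lrg1, a secreted glycoprotein of neutrophils and liver, by 0.75 (SE 0.18, adjusted p = 0.0393). Mmp9, gelatinase B, had an estimate of 0.94 (adjusted p = 0.0934) and Hp, haptoglobin, one of 1.25 (adjusted p = 0.205). Acod1, Fpr1, Ly6g, Mrgpra2b, Stfa2 and Trem1 were at 0 in all libraries. Of 7 primary granule and promyelocyte genes none passed the filter: Mpo had at most 1 read in any library, Elane had 3 reads in sham and 0 in burn libraries, Fcnb and Ms4a3 had none, and Prtn3, proteinase 3, had the most reads, 2 to 5 per library in YB and 0 to 3 elsewhere.

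The ligands of the member receptors were also near 0. None of 9 passed the filter, and Csf3, which encodes the ligand of Csf3r, and Cxcl3 had no read. Cxcl1, a ligand of Cxcr2, had 2 to 3 reads per library in YB and 1 in each YS library, 0 to 5 in AB and 2 to 6 in AS. The platelet chemokine Ppbp, another ligand of Cxcr2, had 24 reads in burn and 15 in sham libraries, not scaled for library size and not tested. Summed over the 9 ligands, the level was 1.21 ± 0.0023 CPM in YS, 1.58 ± 0.41 in YB, 2.49 ± 0.72 in AS and 1.58 ± 0.76 in AB (SD, n = 3).
Of 8 partners and signalling genes of these receptors and of calprotectin, 7 were tested, 6 had positive estimates over both ages with a median of 0.38, and 1 was called. That gene was Stat3, the transcription factor that acts downstream of Csf3r and of many cytokine receptors, at 0.60 (SE 0.09, adjusted p = 0.017) in the 12 libraries and 0.57 (SE 0.08, adjusted p = 0.00274) in the 11. Tlr4, a receptor for calprotectin, had an estimate of 0.89 (adjusted p = 0.159). None of 7 adhesion genes tested was called in the 12 libraries or of 8 in the 11, and 7 of 7 had positive estimates with a median of 0.38. Icam2 and Vcam1 on endothelium had estimates of 0.07 (adjusted p = 0.806) and 0.38 (adjusted p = 0.188), and Itgb2, the shared chain of leukocyte integrins, one of 0.91 (adjusted p = 0.113). Of 6 granulocyte transcription factors, 4 were tested over both ages and none was called, with Cebpb at 0.63 (adjusted p = 0.222) and Cebpd at 0.90 (adjusted p = 0.098), while Cebpd was called in the adults without YB replicate 2 at 1.31 (SE 0.29, adjusted p = 0.0443). None of the 9 tested paralogs of the members, was called for burn in the 12 or the 11 libraries, and their median was -0.09 in the 12. S100a6 and S100a1, the most abundant of them, had estimates of -0.10 (adjusted p = 0.679) and -0.14 (adjusted p = 0.546).

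Markers of other blood cells were measured in the same libraries. Of 12 macrophage and monocyte markers 11 were tested, 4 rose over both ages in the 12 libraries (Cd68, C1qa, C1qb and C1qc) and 8 in the 11 (with Adgre1, Csf1r, Mrc1 and Lyz2), with a median of 0.71 in the 12. Of all genes tested, 0.903% were called in the 12 libraries and 2.81% in the 11. The summed level of the 12 macrophage and monocyte markers ran from 301 to 418 CPM in YS, 536 to 900 in YB, 320 to 390 in AS and 384 to 514 in AB. Of 3 platelet markers 2 were tested and Pf4 rose (0.85, SE 0.17, adjusted p = 0.0436), with summed levels of 24.5 to 29.9 CPM in YS, 34.99 to 62.7 in YB, 17.1 to 27.8 in AS and 29.4 to 36.3 in AB. None of 5 red blood cell markers was called, and all 5 had negative estimates with a median of -0.29, Hbb-bs and Hba-a1 at -0.29 and -0.30. The 7 lymphocyte markers summed to at most 8.81 CPM in any library, with Cd79b and Cd3e at most 7 reads each, and none was tested. The keratins Krt1, Krt5, Krt6a and Krt14 of the epidermis had 0 counts in all libraries, and Krt10 had an estimate of -0.34 (adjusted p = 0.223). The part of monocytes, macrophages and platelets in the S100a8 and S100a9 values was not tested.

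Small RNA libraries of the same mice gave a second readout of blood-derived cells. The 2 mature miRNAs shown are those best known from granulocytes and from the blood lineage, miR-223 and miR-142, with the seed (bases 2 to 8) in capitals.
mmu-miR-223-3p: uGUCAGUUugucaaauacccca
mmu-miR-142a-3p: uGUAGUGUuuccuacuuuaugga
The seeds differ, and the deposited counts are per precursor entry and not per arm. The mir-223 entry had 67 to 86 counts in YB, 58 to 95 in YS, 44 to 81 in AB and 40 to 59 in AS, or 27.6 ± 7.5, 31.6 ± 5.6, 28.2 ± 7.9 and 21.1 ± 3.5 CPM (SD, n = 3). Its log2 fold change over both ages was 0.10 (SE 0.17, adjusted p = 0.917). The estimates were 0.42 (SE 0.25) in the adults and -0.21 (SE 0.24) in the young, and their difference of -0.63 (SE 0.35, adjusted p = 0.549) did not pass. For mir-142a the value over both ages was -0.09 (SE 0.13, adjusted p = 0.917), from 105 ± 19.4 CPM in AB and 106 ± 14.5 in YB against 113 ± 23.9 in AS and 111 ± 17.7 in YS. Of the 5 blood cell entries tested (mir-223, mir-142a, mir-155, mir-146a and mir-451a) none was called over both ages, beside 0% of the 299 entries tested, and none of the 5 was under an unadjusted p of 0.05. Over all 299 entries, 26 had an unadjusted p under 0.05. The level of mir-155 was 83.4 ± 6.0 CPM in YB against 64.4 ± 4.1 in YS (SD, n = 3). In the adults it went the other way, at 107 ± 15.2 CPM in AB against 135 ± 22.4 in AS (SD, n = 3). None of the 5 entries was called within either age or for the difference between the ages, beside 0% of the 299 entries.

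The genes whose level followed the summed members most closely over the 12 libraries were Nelfb (r = 0.923), Wdr5 (r = 0.914), Tapbp (r = 0.911), Rassf4 (r = 0.908) and Xpnpep1 (r = 0.906), by Pearson's r of log2 CPM among 12406 candidates. The list changed without YB replicate 2, to 9530068E07Rik (r = 0.906), Rab5c (r = 0.9), Atxn7l3 (r = 0.898), Crlf2 (r = 0.886) and Nubp2 (r = 0.886), with none in common. The points share the burn groups and the library depth, and r is given as a description.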

How the data were processed

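The authors aligned paired-end poly-A reads to GRCm38 with STAR (2.7.5c in the submitters' processing notes) and deposited raw counts per Gencode M25 gene from its GeneCounts option. They deposited miRNA counts per precursor entry from featureCounts (2.0.1). Which strand was counted is stated in no source used. By a legend in the study, a young burn animal, not named, was left out of a heatmap. The members and lists were chosen with earlier results of these data known.

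Counts were read as deposited, scaled by TMM and filtered by filterByExpr (minimum count 10, minimum total 15), which kept 12408 genes of 12 libraries, 12651 of 11 and 299 miRNA entries. Group means were fitted in edgeR 4.0.16 (R 4.3.3, quasi-likelihood test, limma 3.58.1), with Benjamini-Hochberg adjustment over all features tested, and called at an adjusted p under 0.05. On simulated counts the fit recovered 175 of 200 changed genes in the adult comparison and 170 of 200 in the young, with 6 and 5 false calls among 12408 genes. The simulated counts followed the type of model that was fitted, with planted changes of a fixed size and no library standing apart. They check the code and give no rate of recovery for the muscle data. Single members were compared by an exact two-sided permutation test on log2 CPM (pseudocount 0.5 counts). Intervals are exact at 95%. Exon lengths and positions came from Gencode M21, promoters and miRNAs from RefSeq (GRCm38.p6).

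Named were all 10 members, Ly6g, Lcn2, Mpo, Elane and Cxcl1, other listed genes that were called or had the highest levels of their list, and the 5 genes most like the members' sum. Genes at 0, Ppbp, Mmp9, Hp, Tlr4, Itgb2, Cebpb and the levels of mir-155 by age were singled out after their values were seen. Each library came from 1 mouse. No pair of libraries held identical counts. Alternatives were DESeq2 1.42.0, its size factors, library size alone, no filter, a minimum count of 5, the compared groups alone, a replicate block, a pseudocount of 2 and leaving out each library.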

Additional observations from a re-analysis of the deposited data

How the results depend on the processing

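S100a8 and S100a9 kept positive burn estimates under every alternative run in both ages and over both ages. Over both ages S100a9 was called in 15 of 18 alternatives (log2 fold change 1.86 to 2.37, adjusted p 2.31e-09 to 0.085) and S100a8 in 5 of 18 (1.80 to 2.89, adjusted p 2.29e-16 to 0.185). The members called over both ages were 1 in the 12 libraries, 2 with DESeq2 and without the filter, and 0 to 2 with 1 library left out. In the young they were 0, then 2 with DESeq2, with library size alone and without the filter, and 0 to 2 with 1 library left out. In the adults they were 0, and 2 without the filter, and between the burn groups 0, and 1 without the filter. The cause of these changes was not tested. Replicate numbers did not pair the mice: same-numbered libraries of different groups had deviations correlated at -0.198 to 0.152, with 3 of 18 pairs above 0.1, and other pairs at -0.184 to 0.204. With the replicate number as a block, S100a9 over both ages stood at 2.08 (adjusted p = 0.018) and S100a8 at 2.48 (adjusted p = 0.0631); 1 member was called as without the block, genes called fell from 112 to 70, and no other call of a member changed. Counts over all genes moved more: with 1 library left out, over both ages 2 (YS replicate 2) to 649 (YB replicate 1), in the young 1 (YS replicate 2) to 697 (YB replicate 1), and in the adults 1 to 115 (YB replicate 2). Library size alone moved the median log2 fold change of all genes from 0.00178 to 0.115 over both ages and from 0.00895 to 0.246 in the young; S100a8 and S100a9 stayed above that median. In the permutation test a pseudocount of 2 brought Cxcr2 under an exact p of 0.05 (0.015). The mir-223 estimate of 0.10 ran from -0.024 (without AB replicate 1) to 0.175 with 1 library left out, and was -0.013 without YB replicate 3. Depth limits 8 of the 10 members, which had at most 11 reads in any library. The study's RNA quality report gives no RNA integrity number for any sample, and the part of RNA quality in these counts was not tested.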
